A study of Homo sapiens with 15 samples.

Results

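The weakest digestion of a P1 titration, 0.01 U, was compared with no digestion. The samples were chosen by their labelled P1 amount, which gave 3 samples with 0.01 U of P1 and 3 untreated samples, 6 of the 15 samples of the series. All 6 came from K562, an established human chronic myeloid leukemia cell line with the genotype given as WT. Cells were crosslinked with formaldehyde and permeabilised, and the nuclei, with the mitochondria that sediment with them, were held at 37 °C for 10 min with or without the enzyme. Libraries were then made by SSiNGLe, in which free 3′-OH ends are tailed with polyA and sequenced, so that each read gives the position and strand of 1 terminus. The study's methods call the 3 samples of a group biological replicates, and pair treated and untreated samples by number.

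P1 is a nuclease that cuts single-stranded DNA and leaves a 3′-OH end, so a stretch of endogenous single-stranded DNA (essDNA) in the nuclei should gain termini when the enzyme is added. Untreated nuclei already hold 3′-OH ends from single-strand breaks and from unfinished replication. In mitochondrial DNA the non-coding region (NCR) carries the D-loop, a triplex in which a short extra strand displaces the parental H (heavy) strand, and the strand-displacement model of replication leaves the H strand single-stranded for long stretches while the L (light) strand stays mostly paired. The question for the smallest amount of enzyme is whether any of these compartments moved away from the untreated background, and how small a move 3 replicates could have shown.

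The untreated samples held 4225443, 2398335 and 2483247 nuclear termini on chromosomes 1 to 22 and X, and the treated samples held 3206132, 2840358 and 2823921. Between 91.8% and 92.4% of nuclear positions with a terminus had exactly 1. Untreated replicate 1 stood apart, with the most nuclear and the fewest mitochondrial termini, and the chi-square per degree of freedom over 1 Mb bins between it and the other untreated samples was 5.44 and 5.10 against 1.48 between those. No pair of replicates was close enough to be 1 library deposited in duplicate. The K562 genome was recognisable in every sample: CDKN2A, which this line lacks, had 0 termini in all 6, where a count of 0 allows up to 3, and BCR, part of its amplified fusion, had 11.9 to 12.7 times the genome-wide density.

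Of the nuclear sequence classes measured, only exons moved with 0.01 U of P1 by more than the spread between replicate pairs. Replication origins and R-loops (DNA-RNA hybrids), where the paper reports its highest enrichment of clustered cut sites, were not measured. Promoters, gene 3′ ends and GC-rich windows carried more termini than the genome average in both groups, and AT-rich windows carried fewer. Exons, whose density was lower in every treated sample than in any untreated one, moved by a factor of 0.974. Densities are termini per base of a class divided by the same value over all called bases, so 1 is the genome average and a change in depth drops out.

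Promoters, taken as 1000 bases on each side of an annotated protein-coding start, had relative densities of 1.85, 1.88 and 1.91 in the untreated samples and 1.90, 1.90 and 1.82 in the treated samples. The groups overlapped, and treated over untreated within replicate numbers was 0.994 (geometric mean, n = 3 pairs, 95% interval 0.901 to 1.10). The half-width of such an interval is the smallest factor that 3 pairs could have set apart from 1, and for promoters it was 1.10. Samples of the same number did not deviate together over nuclear bins of 100000 bases, and without pairing the smallest factor for promoters was 1.05. Introns gave 1.00 (0.968 to 1.04), the sequence outside genes 1.00 (0.974 to 1.03), and the 2001 bases around gene 3′ ends 0.990 (0.944 to 1.04). A p that misses a threshold does not show that the classes were alike, and these intervals bound how far they can have moved relative to the genome average. A gain of termini shared by the whole nuclear genome would cancel out of these densities.

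Exons had relative densities of 1.61, 1.59 and 1.57 without P1 and 1.55, 1.56 and 1.53 with it. The groups did not overlap, and the ratio was 0.974 (95% interval 0.952 to 0.996, n = 3 pairs). It was lower in 3 of 3 pairs, and lay between 0.970 and 0.978 without each replicate number in turn and when positions were counted once, rarefied or stripped of those with 5 or more termini. The exact sign-flip permutation test gave p = 0.25 and the exact permutation test of the sample labels p = 0.10, which are the smallest two-sided values that these designs allow. Of 64 ratios computed over nuclear and mitochondrial measures, this was the only one whose interval left out 1, and 1 of 3 in which the groups did not overlap. None of the 64 intervals was adjusted for their number.

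**Figure D1:**
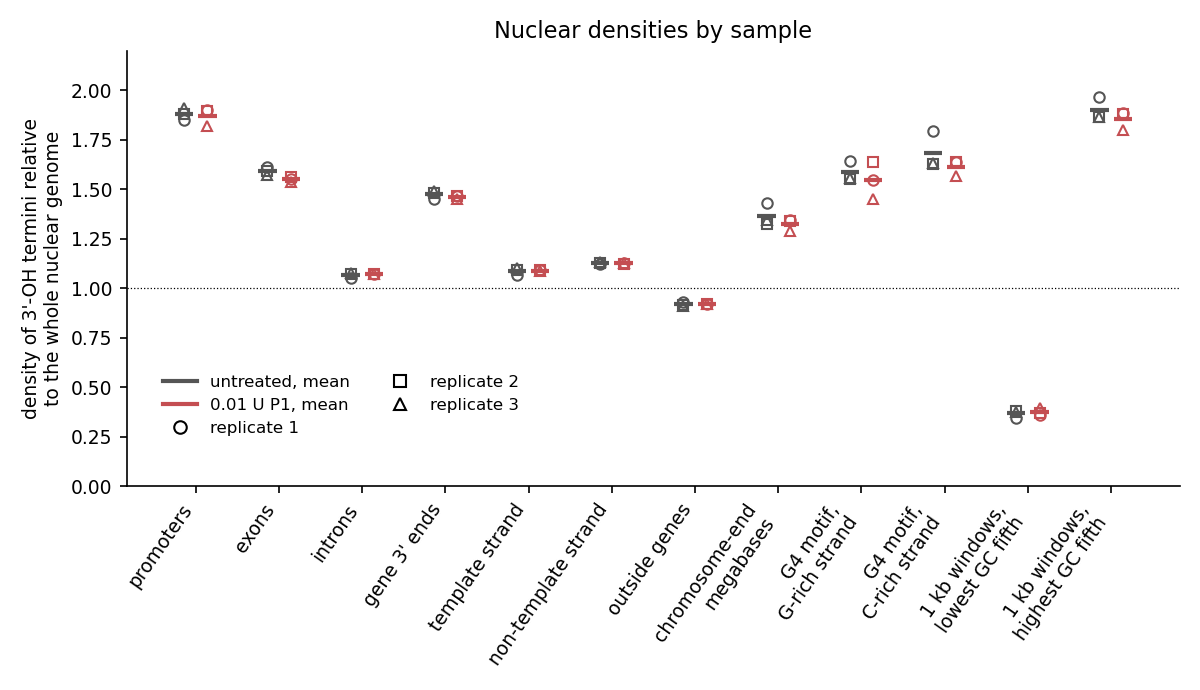
Relative density of nuclear 3′-OH termini (y axis, 1 is the genome average) in 12 classes of sequence, with 1 marker for each replicate and a line for the group mean. The groups overlap in every class except exons, where the 3 treated values (1.53 to 1.56) are below the 3 untreated values (1.57 to 1.61).

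Strands of genes were separated next, because transcription exposes single strands unequally. A terminus on the template strand is a free end on the strand that RNA polymerase reads. The template strand had relative densities of 1.07, 1.09 and 1.10 without P1 and 1.09, 1.09 and 1.09 with it, a ratio of 1.00 (0.957 to 1.05). For the non-template strand the ratio was 0.998 (0.985 to 1.01), the tightest of all 64, and the smallest factor that could have shown was 1.014. Template over non-template went from 0.951, 0.968 and 0.972 to 0.968, 0.970 and 0.963, a ratio of 1.00 (0.970 to 1.04).

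Around gene starts, sites peaked on the template strand just inside the gene and on the non-template strand on each side of the start, in both groups. Within 250 bases of a start the template strand had 2.09, 2.23 and 2.25 times the genome average of sites without P1 and 2.24, 2.26 and 2.10 times with it, a ratio of 1.00 (0.843 to 1.19). The non-template strand gave 1.01 (0.835 to 1.22). Untreated replicate 1 and treated replicate 3 were the lowest on both strands. Around gene ends, where both groups dipped, the ratios were 0.990 (0.932 to 1.05) on the template and 1.00 (0.959 to 1.04) on the non-template strand.

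**Figure D2:**
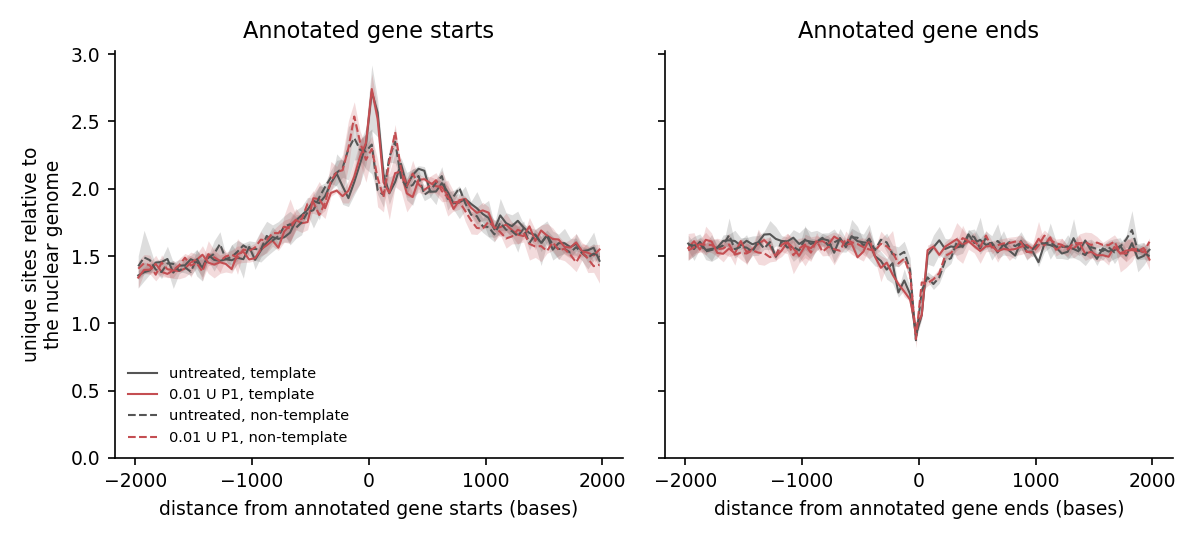
Unique sites per base relative to the nuclear genome (y axis) in 50-base steps against the distance from annotated gene starts (left) and gene ends (right), with lines for group means and shading for the range over 3 replicates. The lines of the groups run within each other's range, with template-strand ratios of 1.00 within 250 bases of the starts and 0.990 within 250 bases of the ends.

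Of the sequence classes that can leave the double helix, those measured here also stayed within error. Windows of 1000 bases were ranked by GC content into 5 equal groups. The lowest group (up to 34.7% GC) had densities of 0.343, 0.382 and 0.377 without P1 and 0.361, 0.371 and 0.392 with it, a ratio of 1.02 (0.918 to 1.14). The highest group (46.5% and more) gave 0.977 (0.915 to 1.04). G-quadruplex motifs, 4 runs of at least 3 Gs that can fold and leave the C-rich strand unpaired, gave 0.975 (0.825 to 1.15) on the G-rich and 0.958 (0.848 to 1.08) on the C-rich strand over 379594 motifs with 100 bases on each side. The outermost 1 Mb of called sequence at each chromosome end gave 0.970 (0.885 to 1.06). Nuclear copies of mitochondrial DNA gave 1.14 (0.442 to 2.95) and 0.922 without replicate 1, whose untreated sample had a density of 1.03 in them against 1.76 and 1.86 in the others. The base at the terminus was C in 45.3% to 47.4% of sites and G in 30.5% to 31.9%, with ratios of 1.01 and 0.992. At equal depth the number of unique nuclear sites changed by a factor of 1.00 (0.952 to 1.05).

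**Figure D3:**
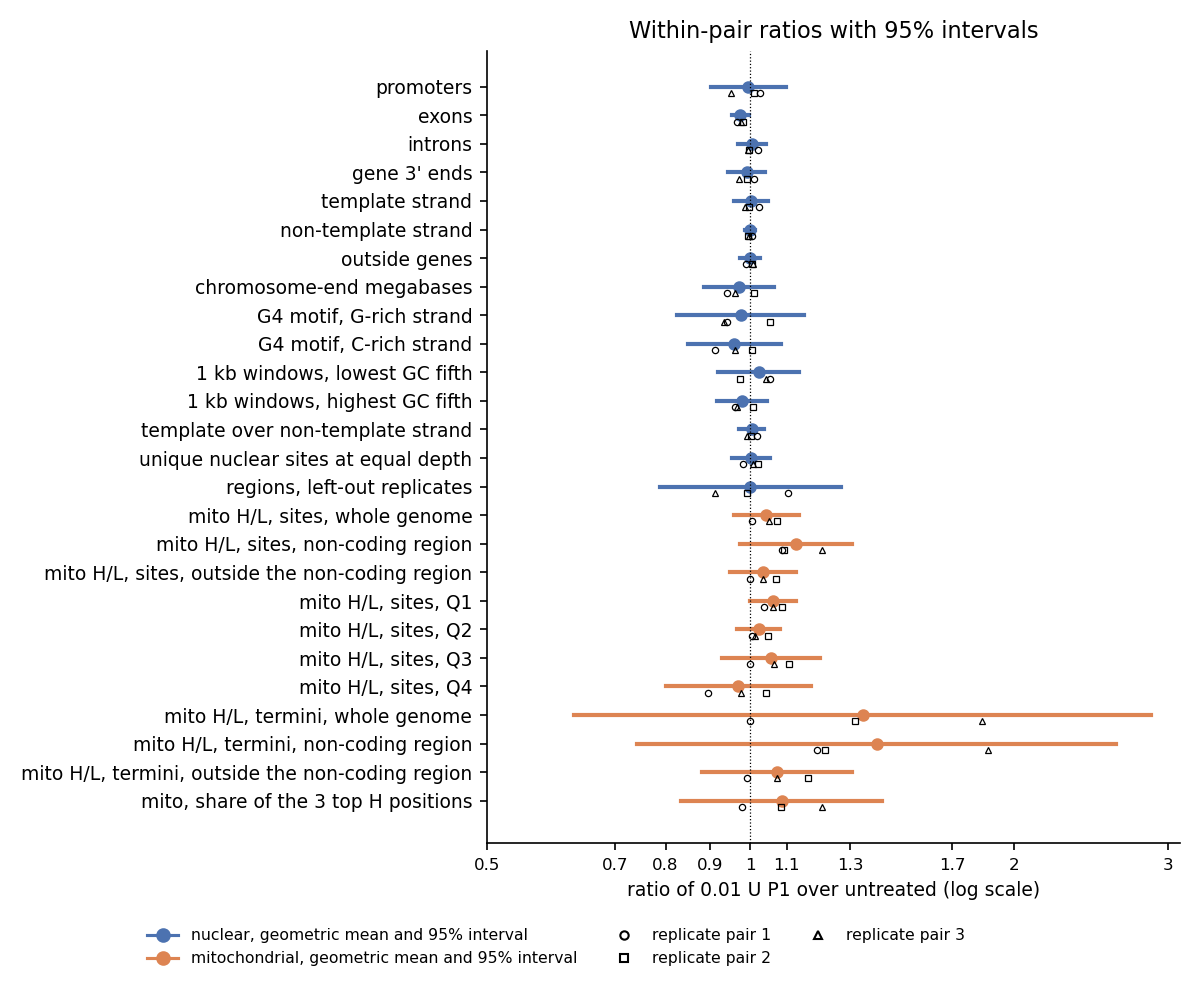
Ratios of 0.01 U of P1 over untreated (x axis, log scale) with 1 small marker for each replicate pair, and the geometric mean with its 95% interval as a filled circle and line, nuclear measures in blue and mitochondrial ones in orange. Exons (0.974, 0.952 to 0.996) are the only measure plotted whose line does not reach 1, and of the measures plotted, which leave out nuclear copies of mitochondrial DNA and mitochondrial termini per nuclear terminus, the H/L ratios of all mitochondrial termini over the whole genome and the NCR have the widest lines.

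Single promoters were tested next, and none was called with 0.01 U of P1. Of 20098 protein-coding promoters 16634 held enough termini to test, at a mean of at least 2 per sample, and edgeR's quasi-likelihood test with the replicate number as a block called 0 higher and 0 lower at an adjusted p under 0.05 (0% in each direction). DESeq2 also called 0. At an unadjusted p under 0.05 edgeR had 524, or 3.15% of those tested. The median promoter had 4.33 termini per sample. Its density had to change 2.68-fold to reach an unadjusted p of 0.05 and 10.4-fold to reach 0.05 over the number tested. That cut is the one a lone changed promoter would face, and the adjustment used is less strict when many change. An observed 2-fold change would have reached that cut at 0.00601% of the promoters. Without replicate 1, 0 promoters were called higher and 2 lower.

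PTP4A2, which encodes a membrane-anchored tyrosine phosphatase, had the smallest p of all promoters (chr1:32409457-32411457). Its promoter held 1, 0 and 1 termini in the untreated samples and 10, 8 and 11 in the treated samples, and the groups did not overlap. Per nuclear terminus that is a ratio of 14.9 (exact counting interval 3.77 to 129), but the edgeR adjusted p was 0.125, and 0.119 to 1.00 under the alternatives. PIGG, an enzyme of GPI-anchor synthesis, and ZNF721, a zinc-finger gene, share a start region on chromosome 4 (chr4:491999-493999 for PIGG) and hence their values. That promoter went the other way, from 15, 5 and 5 termini to 1, 0 and 1, with untreated over treated at 12.2 (counting interval 3.04 to 106) and an adjusted p of 0.654. Neither was called, and counting intervals cover counting error only, since no source used here names a molecular identifier.

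Groups of genes with reasons to hold single-stranded DNA were read from the same fits, by counts and medians. The promoters of 76 tested genes of cytosolic ribosomal proteins, which are among the most highly transcribed, had a median log2 change of -0.14, beside 0.00 over all promoters tested. Those of 54 replication-dependent histone genes had 0.05, of 44 DNA replication factors 0.07, of 23 erythroid genes -0.12 and of 9 genes at common fragile sites -0.03. None of these 206 promoters was called, as none was among all 16634 tested. In edgeR 8 of them had an unadjusted p under 0.05, beside 524 (3.15%) of all. Summed over the list, the histone promoters held 113, 146 and 141 termini per 1000000 without P1 and 128, 118 and 132 with it, and the groups overlapped.

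RPL23A, a ribosomal protein gene, had the best-covered promoter of its list, with 24, 12 and 9 termini without P1 and 13, 12 and 7 with it. CDC45, part of the replicative helicase, had 29, 10 and 5 against 18, 17 and 10. Among histones the linker histones H1-3 and H1-4 led, with 7, 13 and 11 against 8, 11 and 17 (log2 change 0.16, SE 0.44) and 9, 9 and 10 against 13, 19 and 7 (0.42, SE 0.44). H1-2, the next, had 15, 10 and 17 against 4, 10 and 10 (-0.83, SE 0.45), so that these neighbours did not share a sign. TAL1, an erythroid transcription factor, had 13, 8 and 8 against 6, 8 and 5 (-0.59, SE 0.52), and KLF1, another, had 10, 7 and 8 against 8, 4 and 10. For RPL23A, CDC45 and KLF1 the counts overlapped between groups, and the smallest change that could have reached an unadjusted p of 0.05 was 1.71-fold for CDC45 and 2.03-fold for KLF1. None of the 183 template and 178 non-template strands of these lists was called either, beside 5 of 36434 (0.0137%) over all gene strands. At so low a share, 0 calls are not read as a trait of these lists. The 14 genes at common fragile sites, long genes that replicate late, held 2457, 2380 and 2353 template-strand termini per 1000000 without P1 and 2369, 2392 and 2373 with it, with a median log2 change of -0.01.

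On gene bodies, which hold more termini, 5 strands of 36434 tested rose and 0 fell (0.0137% and 0% called). The 5 were the template strands of C13orf42, IMPG1 and GAB2 and the non-template strands of ERMAP and PCNX1. In all 5 the rise lay at 1 position, a run of As followed by a run of Ts in an intron, and on the rest of each strand the groups overlapped. DESeq2 called 0 of these, and edgeR had 1603 (4.40%) at an unadjusted p under 0.05. Counted as unique sites instead of termini, 0 were called. Over nuclear bins, samples of the same number did not deviate together, so the nuclear data do not support the replicate block. Without it, 2 of the 5 were called.

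Of these, C13orf42, an open reading frame of unknown function (chr13:51656255-51774388), had 22.7, 34.2 and 27.4 template-strand termini per 1000000 nuclear termini without P1 and 54.9, 37.3 and 45.3 with it. The groups did not overlap, and the log2 change was 0.75 (SE 0.14, edgeR adjusted p = 0.00191). ERMAP, an erythroid membrane protein of the immunoglobulin family (chr1:43282793-43310662), had 11.4, 12.1 and 12.9 on the non-template strand against 21.8, 21.1 and 28.0, a log2 change of 0.96 (SE 0.20). GAB2, a scaffold of receptor signalling (chr11:77926339-78129394), had 47.6, 66.3 and 69.7 on the template strand against 90.5, 77.8 and 85.7, a log2 change of 0.51 (SE 0.11). In ERMAP and GAB2 too, every treated sample was above every untreated one.

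PCNX1, a pecanex homolog (chr14:71374122-71582099), had 33.8, 65.0 and 47.5 non-template termini per 1000000 against 65.5, 79.2 and 63.4. IMPG1, a proteoglycan of the retinal matrix (chr6:76630831-76782395), had 75.7, 206 and 163 template-strand termini per 1000000 against 165, 207 and 177. In both the groups overlapped, and untreated replicate 1 was the lowest sample. The adjusted p was 0.0115 in edgeR for ERMAP, GAB2, PCNX1 and IMPG1 alike. Without replicate 1 none of the 5 was called, and the log2 change was 0.44 for C13orf42, 0.98 for ERMAP, 0.28 for GAB2, 0.36 for PCNX1 and 0.08 for IMPG1. Without replicate 3 none was called either, and without replicate 2 all 5 were.

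Among 28334 bins of 100000 bases tested, 4 rose and 0 fell (0.0141% and 0% called, with 1184, 4.18%, at an unadjusted p under 0.05). DESeq2 and the count of unique sites each called 0. The bins on chromosomes 13 and 14 were those that hold the C13orf42 and PCNX1 positions. The bin on chromosome 9 (chr9:22300001-22400000) held almost nothing else, as in the deleted CDKN2A nearby, and had 53.5, 98.8 and 70.9 termini per 1000000 without P1 and 79.2, 136 and 107 with it, an adjusted p of 0.00626. All but 0 or 1 of its termini in each sample fell on 1 position, while the median bin held 89.8 per sample. Whether the termini at that position arose at this locus was not tested. The bin on chromosome 5 (chr5:81000001-81100000) had 127, 87 and 107 termini without P1 and 126, 104 and 1196 with it. Of the last, 1073 lay within 10 bases of position 81095316, where the 5 other samples had 0, and without replicate 3 its log2 change fell from 1.60 to 0.22 (adjusted p = 1.00). The sequence at that position resembles the end of a common sequencing adapter, and whether these 1073 termini came from genomic DNA was not tested. Without the replicate block 1 bin was called. Without replicate numbers 1, 2 and 3 in turn, 2 bins rose and 9 fell, 13 rose and 2 fell, and 5 rose and 0 fell.

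The sequences at the leading positions are given because most of the termini behind the calls lie there, the chromosome 5 one with the doubt about an adapter stated above. Each is 30 bases of hg19 on the strand with the 3′-OH end, 5′ to 3′, and the capital letter is the base listed as the terminus.
C13orf42, chr13:51715146-51715175, plus strand: ataagattaaaaaaaattttttttTtttgt
IMPG1, chr6:76671998-76672027, plus strand: agcaattaaaaaaattttttttttAtgtag
ERMAP, chr1:43294155-43294184, plus strand: ctttttttaaaaaaatttttttttTttttt
PCNX1, chr14:71491213-71491242, plus strand: ttctttaaaaaaatttttttttttAttttt
GAB2, chr11:78113464-78113493, plus strand: ttttgtttaaaaaaaattttttttTttttg
chromosome 9, between genes, chr9:22348813-22348842, plus strand: cttttttttaaaaaaattttttttTattat
chromosome 5, between genes, chr5:81095311-81095340, minus strand: ctgttactgaactccagtcactgcTtttgc
All of these except the chromosome 5 position hold AAAAATTTTT, a run of 5 As and 5 Ts that reads the same on both strands, in the 25 bases that end at the terminus. The 5 positions in genes are intronic. The motif was chosen after these sequences had been seen.

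The position in C13orf42 held 1.18, 12.1 and 14.9 termini per 1000000 in the untreated samples and 37.1, 19.7 and 30.8 in the treated ones. On the rest of that strand the values were 21.5, 22.1 and 12.5 against 17.8, 17.6 and 14.5. At the ERMAP position 1.42, 7.09 and 3.62 stood against 13.1, 14.1 and 20.9, and at the GAB2 position 5.68, 18.3 and 21.3 against 48.0, 29.2 and 41.4. These 3 positions were higher in every treated sample than in any untreated one, and the rest of each gene strand overlapped between groups. Since the positions were picked from the strands that were called, these values are a description.

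**Figure D4:**
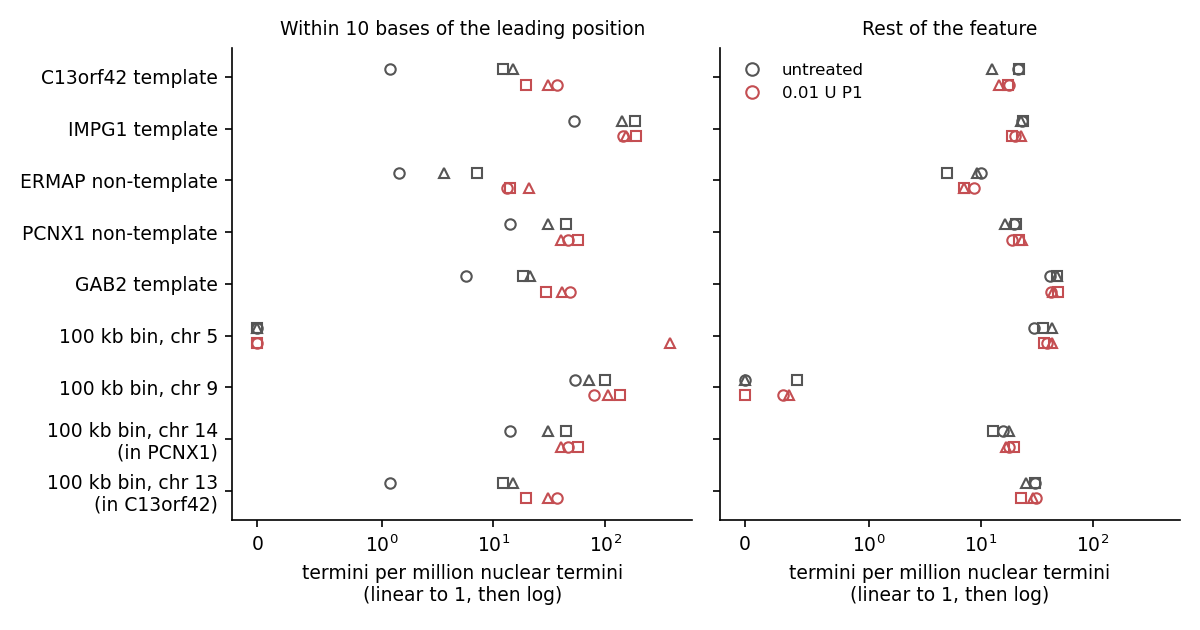
Termini per 1000000 nuclear termini (x axis, linear to 1 and then logarithmic) in each sample, within 10 bases of the leading position of each called strand or bin (left) and in the rest of that feature (right). Replicates 1, 2 and 3 are circles, squares and triangles; the groups are apart at the C13orf42, ERMAP and GAB2 positions and overlap in the rest of each strand, and the chromosome 5 value of 380.0 belongs to treated replicate 3 alone.

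Such positions were then sought without using the 6 samples, although the motif had come from them. In the 9 libraries with 0.1, 1 or 10 U of P1, 518 recurrent positions had a mean of at least 10 termini, with neighbours within 10 bases joined. Of these, 187 (36.1%) held AAAAATTTTT in the 25 bases that end at the terminus, against 0.0290% of all 25-base windows of the genome on either strand. An annotated gene of any type held 181 of the 518. In the genome, sequence outside such genes took 1073.1 Mb of the 2835673565 called bases, so these positions are not read as typical of genes. Examples of the strongest with the motif, and the strongest without it, were these, with the terminus in capitals.
USP45, chr6:99944628-99944657, minus strand: cttgaaaaaaaatttttttttttaAagtgg
LRP2, chr2:170091741-170091770, plus strand: tgcttgaaaaaaatttttttttttTttgag
PPAT, chr4:57263887-57263916, minus strand: gtcttgaaaaaaatttttttttaaTtttta
chromosome 1, beside the centromere, chr1:121485311-121485340, plus strand: cctttcttttcatagagcagttagGaaaca
The position in USP45, a deubiquitinase gene, held 1816, 3186 and 2900 termini without P1 and 1938, 3374 and 2111 with it. The one in LRP2, the gene of the endocytic receptor megalin, held 1278, 2388 and 1671 against 1863, 2327 and 1834. The groups overlapped at both positions.

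Together the 187 positions with the motif took 2852, 9620 and 7563 per 1000000 nuclear termini without P1 and 5606, 8081 and 6389 with it. The treated samples lay between the untreated ones, of which replicate 1 held the fewest. The 331 others took 7899, 9794 and 9308 against 8543, 8974 and 9389. Of 512 recurrent positions tested with all nuclear termini as the library size, edgeR called 0 higher and 0 lower (0%), and 15 (2.93%) had an unadjusted p under 0.05. DESeq2 was not run on them. Of those 15, 14 were higher and 13 of these held the motif. The motif had been chosen from positions in features called higher in these 6 samples, and those positions are also among the recurrent ones. The share with the motif and the medians by motif below are therefore descriptions.

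The median log2 change was 0.27 over positions with the motif, of which 132 were higher and 55 lower, and 0.02 over positions without it, of which 170 were higher and 155 lower. Over all 512 it was 0.06, and it was -0.04 without replicate 1. The ERMAP position had the smallest p, with 1.18, 5.00 and 2.82 termini per 1000000 against 9.36, 12.3 and 18.8, a log2 change of 2.26 (SE 0.50, edgeR adjusted p = 0.820). ATRX, a chromatin remodeller that is mutated in many tumours, had the second (position 76995544 on X), with 1.89, 12.1 and 3.62 against 21.2, 17.3 and 16.6. At both, every treated sample was above every untreated one, and neither was called. The part of untreated replicate 1 in these differences was not tested. Without replicate 1, 2 positions were called higher and 6 lower, without replicate 2, 7 and 1, and without replicate 3, none.

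The regions that the authors' peak caller listed for 0.01 U were used only as coordinates, and were read in replicates that took no part in calling them. The 3 lists held 10239, 8970 and 7281 regions, and 3.81%, 4.09% and 4.37% of each overlapped a region of at least 1 other list. Regions of the other lists held 2617, 5173 and 5617 unique sites per 1000000 in the left-out untreated samples and 2890, 5127 and 5122 in the treated samples of the same numbers. Treated over untreated was 0.999 (0.787 to 1.27), higher in 1 of 3 pairs, and a factor of 1.27 could have shown. At promoters the ratio was 1.01 (0.678 to 1.49). Regions present in both other lists gave 0.862, and 0.860 (0.704 to 1.05) outside nuclear copies of mitochondrial DNA, lower in 3 of 3 pairs with an exact sign-flip p of 0.25, the smallest possible.

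Of the single regions, 25, 24 and 24 of the 3 lists overlapped both other lists (0.244%, 0.268% and 0.330%). Once overlapping regions were merged, 30 merged regions counted as present in all 3 lists. Of these, 13 lay on chromosome 22 or at 9q34, where K562 carries its amplified fusion. The share of all listed regions in that sequence was not counted, and BCR there had 11.9 to 12.7 times the genome-wide density of termini. The 13 are therefore not read as a trait of the recurring regions. The one with the most treated termini was in PLEKHA6, a gene for an adaptor protein of cell junctions (chr1:204329231-204329400), with 9, 2 and 3 termini without P1 and 21, 14 and 10 with it. The next was in DGCR8, a partner of Drosha in microRNA processing (chr22:20098921-20099140), with 9, 11 and 12 against 20, 11 and 9. These values chose the regions, since each was called on the same samples, so they are given without a test.

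In mitochondrial DNA the untreated samples held 112179, 468797 and 486276 termini and the treated samples 665476, 496656 and 691313. Per 1000 nuclear termini that was 26.5, 195 and 196 against 208, 175 and 245, a ratio of 2.06 (0.113 to 37.4). Without replicate 1 it was 1.06. Only a factor of 18.2 could have shown here, or 6.48 without pairing, because untreated replicate 1 held so few. A smaller share of mitochondria in the pellet cannot be told apart from fewer termini per mitochondrion. For counts of unique sites the samples were brought to equal depth by exact rarefaction to 112179 mitochondrial termini.

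The balance of the strands leaned to the H strand by amounts within the error. At equal depth the ratio of unique H-strand to L-strand sites was 1.01, 0.968 and 1.02 over the whole mitochondrial genome without P1 and 1.01, 1.04 and 1.07 with it, a factor of 1.04 (0.958 to 1.13, higher in 3 of 3 pairs). In the NCR it was 1.23, 1.32 and 1.41 against 1.34, 1.45 and 1.71, a factor of 1.13 (0.973 to 1.31), and outside it 1.03 (0.947 to 1.13). Each exact sign-flip test gave p = 0.25 or more. The smallest factors that could have shown were 1.09, 1.16 and 1.09, and 1.07, 1.26 and 1.06 without pairing. Equal depth here means equal mitochondrial termini in all, and since the NCR took unequal shares of them, the depth outside it still differed. Rarefied to 37357 termini outside the NCR, the ratio there changed by 1.04 (0.945 to 1.14).

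Outside the NCR the study splits the genome into 4 regions, Q1 to Q4, and by the strand-displacement model the H strand should stay single-stranded for longer in Q1 than in Q2. In Q1 the ratio of unique sites was 0.983, 0.960 and 1.01 without P1 and 1.02, 1.04 and 1.08 with it, a factor of 1.06 (0.998 to 1.13). The groups did not overlap, it was higher in 3 of 3 pairs, and the exact permutation test of the labels gave p = 0.10, the smallest it allows. Of the 64 ratios, 3 had groups that did not overlap, 10 were higher in 3 of 3 pairs and 9 were lower in 3 of 3. At equal depth outside the NCR the factor for Q1 was 1.06 (0.994 to 1.14), also with no overlap. Q2, Q3 and Q4 gave 1.02 (0.965 to 1.08), 1.06 (0.927 to 1.20) and 0.969 (0.801 to 1.17), and in each of them the groups overlapped. At equal depth outside the NCR they gave 1.03, 1.06 and 0.983. The H strand of Q1 held 19.5%, 18.2% and 20.0% of termini outside the NCR without P1 and 20.0%, 20.6% and 21.4% with it, a factor of 1.08 (0.952 to 1.22), again with no overlap. These Q1 measures count the same termini in different ways, so they are not separate support. Whether Q1 differed from the other regions was not tested.

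Counted by termini, treated replicate 3 stood apart. The H strand of the NCR held 65.4%, 66.3% and 69.1% of mitochondrial termini without P1 and 65.4%, 71.4% and 81.3% with it, a factor of 1.08 (0.882 to 1.32) and 1.04 without replicate 3. H/L of all termini was 4.46, 4.37 and 5.17 over the whole genome against 4.46, 5.75 and 9.51, a factor of 1.34 (0.629 to 2.87) and 1.15 without replicate 3. Position 16107 on the H strand, the most frequent terminus, held 33.2%, 31.6% and 33.4% of mitochondrial termini against 32.5%, 34.3% and 40.8%. Positions 16108 and 16106 followed, with 14.6% to 18.9% and 5.30% to 6.99% over the 6 samples. The 3 positions together changed by a factor of 1.09 (0.834 to 1.41).

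None of 332 strand-specific windows of 100 bases was called by edgeR (0% in each direction) or by DESeq2, and 15 (4.52%) had an unadjusted p under 0.05. The 3 with the smallest p were neighbours on the H strand of the NCR. The window at 16201 to 16300 held 2.74, 2.86 and 2.98 of every 1000 mitochondrial termini without P1 and 3.10, 3.09 and 3.36 with it, and the groups did not overlap. Its log2 change was 0.48 (SE 0.13, adjusted p = 0.526), and those of the windows at 16401 to 16500 and 16301 to 16400 were 0.43 and 0.39. These values depended on the scaling: with TMM, which sets the median window at -0.01, they are larger than with library size alone, which sets it at -0.33 and gives 0.15, 0.09 and 0.05. Without replicate 1 these 3 windows were called, with log2 changes of 0.62, 0.50 and 0.47 and adjusted p of 0.00128, 0.00452 and 0.00128, among 23 windows that rose and 13 that fell. Over all alternatives the adjusted p of the first ran from 0.00128 to 1.00.

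Of the 33142 positions by strand 11714 were tested. edgeR and DESeq2 called 0 in either direction (0%), and edgeR had 299 (2.55%) at an unadjusted p under 0.05. Position 16142 on the H strand, in the NCR, had 18, 42 and 57 termini without P1 and 83, 109 and 142 with it. Relative to each sample's mitochondrial termini the groups overlapped, at 0.160, 0.0896 and 0.117 per 1000 against 0.125, 0.219 and 0.205, and the log2 change was 1.07 (SE 0.33, edgeR adjusted p = 1.00). H-strand position 7115 had 0, 0 and 3 termini against 9, 14 and 6, and L-strand position 7620 had 4, 3 and 6 against 0, 0 and 1. Per mitochondrial terminus the first was 5.57 times higher with P1 (counting interval 1.73 to 28.6) and the second 22.6 times higher without it (3.39 to 959), and both had an edgeR adjusted p of 1.00. Without replicate 3, 1 position was called.

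By gene and strand, edgeR called 0 of 76 features in either direction (0%), DESeq2 called 0, and 5 (6.58%) had an unadjusted p under 0.05. Scaled by TMM, the H strand of all 13 protein-coding genes had a positive log2 change, from 0.02 to 0.18, and the L strand of 10 of the 13 a negative one, from -0.10 to 0.02 over all 13. With library size alone every one was negative, from -0.31 to -0.15 on the H strand and from -0.44 to -0.30 on the L strand, so that only the gap between the strands, with medians of 0.07 and -0.04 against -0.27 and -0.38, was present under both. Treated replicate 3 had a TMM factor of 0.633 against 0.971 to 1.16 in the other samples, and its part in this shift was not tested. Both rRNA genes had -0.03 on the H strand with TMM and -0.37 and -0.36 with library size alone.

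MT-ND6, a complex I subunit and the only protein encoded on the other strand from the rest, had the smallest p, on the H strand. It held 5.19, 5.46 and 5.23 of every 1000 mitochondrial termini without P1 and 6.16, 5.04 and 3.51 with it, and the groups overlapped. Its log2 change was 0.18 with TMM (SE 0.05, edgeR adjusted p = 0.144) and -0.15 with library size alone. MT-ND5, another complex I subunit, had 0.17 on the H strand and -0.17 with library size alone, and the alanine tRNA gene MT-TA had 0.32 and -0.03. Without replicate 1 these 3 were called, with adjusted p of 0.00336, 0.0104 and 0.0133, among 5 features that rose and 2 that fell. The NCR itself had 0.44 on the H strand with TMM (SE 0.27, adjusted p = 0.831) and 0.11 with library size alone, and its L strand had -0.03 with TMM, which turned to 0.07 without replicate 1, and -0.37 with library size alone.

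How small a change 3 replicates could have shown depended on the termini per feature. At an unadjusted p of 0.05 the median smallest change was 2.68-fold for promoters, 1.49-fold for gene strands and 1.23-fold for bins. For mitochondrial windows it was 1.18-fold, for mitochondrial genes by strand 1.25-fold, for mitochondrial positions 2.50-fold and for recurrent nuclear positions 1.93-fold. At 0.05 over the number tested in each table these became 10.4, 2.66, 1.69, 1.45, 1.58, 8.55 and 7.28. That cut is the one a lone changed feature would face, and Benjamini-Hochberg is less strict when many features change. An observed 2-fold change would have reached that cut at 27.4% of gene strands, 84.2% of bins and 99.1% of mitochondrial windows. For mitochondrial genes by strand the share was 92.1%, but for single mitochondrial positions and recurrent positions it was 0%. Gene strands with 2 to 5 termini per sample needed 17.5-fold to reach that cut, and those with 100 to 1000 needed 1.50-fold. A true change of such a size would pass the cut in only part of repeats.

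**Figure D5:**
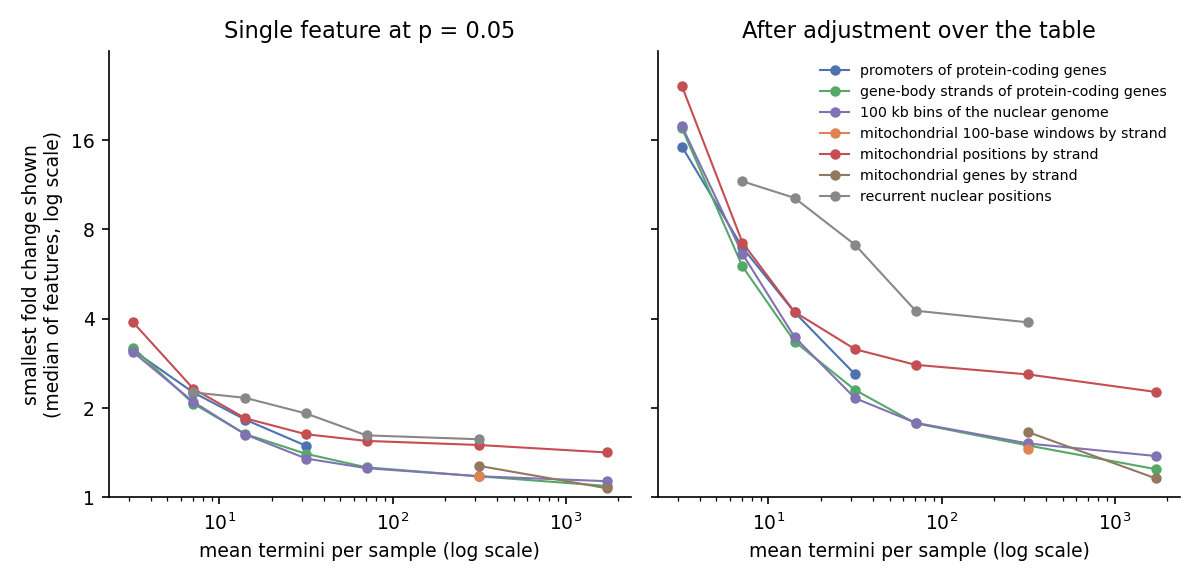
Smallest fold change that 3 pairs could have shown (y axis, median over features, log scale) against the mean termini per sample (x axis, log scale). The left panel is for a single feature at the unadjusted threshold of 0.05, the right panel for 0.05 over the number tested in its table. In the right panel, 100 kb bins fall from 17.8-fold at 2 to 5 termini to 1.52-fold at 100 to 1000. Recurrent positions stay highest there, at 3.89-fold in that range.

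The same tests with the other P1 amounts, which share the untreated samples with these comparisons, show what the same design called at larger amounts. All values are relative to the other termini of a sample, so a feature called lower need not have lost termini. Loss of termini was not tested. Of the 332 mitochondrial windows, 0 were called at 0.01 U, while 137 were higher and 159 lower at 0.1 U (89.2%), 134 and 167 at 1 U (90.7%), and 100 and 97 at 10 U (59.3%). For mitochondrial positions 1512 were higher and 164 lower at 0.1 U (13.5% of those tested). At 1 U they were 3022 and 1099 (30.4%), and at 10 U 689 and 830 (18.3%). The samples with 10 U held only 42899, 57127 and 29622 mitochondrial termini. Promoters gave 0 calls at 0.1 and 1 U and 3 higher and 1 lower at 10 U (0.0244%). Gene strands gave 11 higher and 0 lower at 0.1 U (0.0302%), 3 and 1 at 1 U (0.0111%), and 17 and 34 at 10 U (0.139%). Bins gave 8 and 0 (0.0282%), 7 and 7 (0.0494%), and 32 and 90 (0.431%). The recurrent positions were chosen in those samples, and gave 2 and 0 (0.389%), 5 and 1 (1.17%), and 24 and 174 (38.4%) there.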

How the data were processed

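SSiNGLe-P1 libraries of K562 nuclei were compared between 0.01 U of P1 and no enzyme, with 3 samples each. The authors trimmed adaptors and tails, aligned reads to hg19/GRCh37 with BWA-MEM 0.7.12, took the base beside the T stretch of read 2 as the terminus, and removed nuclear termini next to T-rich sequence. The deposited values are counts of termini per position and strand, not normalized. SICER 1.1 regions, called by the authors for each treated sample against its untreated partner, gave coordinates only, and the enrichment statistics in those lists were not used. The deposited strand is opposite to that of the 3′-OH end: the 20 bases upstream on it never held more than 8 Ts.

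Samples were grouped by the labelled amount. Nuclear termini on chromosomes 1 to 22 and X were summed over promoters, gene strands (GENCODE 44), bins and recurrent positions, and mitochondrial ones over windows, positions and genes. Mitochondrial positions are those of the deposited counts, which run to base 16571. The reference used here held 16569 bases, and gene boundaries were not shifted to match, so positions and genes can be offset slightly. The NCR ran from 16024 to 576 in the tests by gene, and had the study's boundaries in the ratios. Nuclear depth was 2398335 to 4225443 termini and mitochondrial depth 112179 to 691313. Features with a mean count of at least 2 were tested with edgeR 4.0.16 (R 4.3.3; quasi-likelihood, TMM, replicate number as a block as in the study's pairing) and Benjamini-Hochberg adjustment, called at 0.05. The smallest change shown is the t quantile times the standard error, at 0.05 and at 0.05 over the number tested. Densities, shares and strand ratios were compared as within-pair ratios with 95% t intervals of their logs and exact permutation tests (scipy 1.17.1). Nuclear copies of mitochondrial DNA were found with BLAST 2.17.0. Samples with the same number did not deviate together over bins (r from -0.03 to 0.03, against -0.06 to 0.05 for different numbers). Over mitochondrial windows r ran from -0.08 to 0.26, against -0.17 to 0.14 for different numbers. The highest there was that of number 3. Where nothing was called, the 3 features with the smallest p were named, and lists by their members with the most termini. Members and lists were chosen with earlier results of these data known. Alternatives were DESeq2 1.42.0, no block, library size alone, no filter, unique sites, thinning, other widths, all 15 samples in 1 fit, and leaving out each replicate number. Scripts were tested on simulated data. Intervals from counts cover counting error only.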

Additional observations from a re-analysis of the deposited data

How the results depend on the processing

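The calls on gene strands and bins depended on the processing, and the calls of 0 elsewhere held in all alternatives except those that left out a replicate. Of the alternative values for the main measures and counts, 102 were close to the reported one and 23 had moved. Gene strands went from 5 calls to 0 with DESeq2, with unique sites and with thinning to equal depth, and to between 0 and 10 without each replicate number in turn. Bins went from 4 to 0 with DESeq2, unique sites and 1 Mb bins, to 2 with thinning, and to between 5 and 15 without each number. Leaving out each number gave 0 to 2 promoters, 0 to 36 mitochondrial windows, 0 to 1 mitochondrial positions, 0 to 7 mitochondrial genes by strand and 0 to 8 recurrent positions, the last added after seeing the data, as was equal depth outside the NCR. The highest of these came without replicate 1, except for gene strands and bins (without replicate 2) and positions (without replicate 3), and recurrent positions gave 8 without replicate 1 and without replicate 2. Regions present in both other lists gave a ratio of 0.862 in place of 0.999. The cause was not tested.

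The block was also left out, since the numbers did not pair the samples over nuclear bins. Gene strands then had 2 calls, bins 1 and the other kinds of feature 0. Without the block and untreated replicate 1, they had 8 and 14 calls, and the log2 change of IMPG1 turned to -0.00126 and that of the NCR L strand to 0.0661. The block changed no other call.

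As unique sites, log2 changes turned for C13orf42 (-0.12), IMPG1 (-0.23), GAB2 (-0.0583) and the H-strand window at 16201 to 16300 (-0.00433). With library size alone those of MT-ND6 (-0.15), MT-ND5 (-0.17) and MT-TA (-0.0279) on the H strand turned. The NCR L strand gave -0.104 to 0.0714 without each replicate and 0.0447 with all 15 samples in 1 fit. In the NCR, H/L of sites gave 1.02 without rarefaction and the H share 1.29 without the 10 positions with the most untreated termini. Unique sites could not be given for single mitochondrial positions, where each position counts once. Depth limits single promoters and positions most.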
